A study of Mus musculus with 26 samples.

Results

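Stra8 and Gm4969 are 2 of the 16344 genes in the count table of single cells from fetal mouse ovaries, and they were taken by their gene symbols. Gm4969 is the symbol under which the table lists Meiosin, which RefSeq calls Bhmg1. Both passed the filter on low counts in the fit across stages. The 1881 cells came from 26 libraries and from 8 stages, embryonic day E11.5 to E18.5. All mice carried the BVSC transgenes, a Blimp1-mVenus and a Stella-ECFP reporter, which mark germ cells through the promoters of Prdm1 and Dppa3. The gonads of several fetuses were combined at each stage, dissociated with trypsin and sorted. The sort gates were BVSC, with 1302 cells, BV, with 50 cells from E11.5 and E14.5, and Negative, with 529 cells from the same kind of transgenic gonads. No treatment or mutant was compared, so the comparisons are between stages and between gates.

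STRA8 is made in germ cells in response to retinoic acid and is required for entry into meiosis in the fetal ovary. MEIOSIN, a protein with an HMG box, binds STRA8, and the pair acts at the promoters of meiotic genes before the DNA replication that precedes meiotic prophase. Retinoic acid acts through receptors that bind DNA at hexamer half-sites. The synaptonemal complex, which holds homologous chromosomes together, and the recombination enzymes are made as prophase begins, while the pluripotency factors of primordial germ cells are switched off.

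Stra8 lies on the plus strand at chr6:34920163-34939344 and Gm4969 on the minus strand at chr7:19099046-19118368 (GENCODE M21, GRCm38, the build of the deposited counts). GENCODE lists 4 transcripts of Stra8 with 5 to 10 exons and 2 of Gm4969 with 5 and 14 exons. The 250 bases upstream of each RefSeq start (GRCm38.p6, chr6:34920698-34920947 and chr7:19118345-19118594) were searched on both strands for the retinoic acid receptor half-site AGGTCA, for the motif CNCCTCAG known from STRA8-bound promoters and for the E-box CACGTG. No match overlapped another. The RefSeq gene spans begin further out than the starts used here, at chr6:34920163 for Stra8 and at chr7:19118531 for Gm4969. All matches lie inside these spans, so upstream refers only to the starts used. GENCODE places the Stra8 window within the second exon of its longest transcript, so only 30 bases around each match are shown, 5′ to 3′ on the gene's strand and with the match in capitals, since these motifs belong to the pathway described above.

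Stra8, chr6:34920742-34920771: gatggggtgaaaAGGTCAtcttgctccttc
Stra8, chr6:34920898-34920927: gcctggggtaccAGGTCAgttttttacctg
Gm4969, chr7:19118370-19118399: gggcgtggcctCGCCTCAGgcgctctggtg
Gm4969, chr7:19118498-19118527: cgggagcgggagCACGTGtcggagctgtgg

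Stra8 held 2 half-sites, whose first bases lie 194 and 38 bases before the start used, and neither of the other motifs. The Gm4969 window held 1 match to the STRA8 motif, 44 bases before the start used, and 1 E-box, 171 bases before it. It held no half-site. Of 32851 windows of this length, 14.02% held a half-site and 1.34% at least 2, 6.42% held the STRA8 motif and 6.02% the E-box. A match describes the letters and is not evidence of binding.

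The levels below are UMIs (unique molecular identifiers, each standing for 1 captured RNA molecule) per 1000000 of the deposited UMI total of the cells concerned (CPM). Cells of a library, stage and gate were summed into pools of at least 5 cells, which gave 18 BVSC, 3 BV and 17 Negative pools. The BVSC pools held 4743602 to 27498626 UMIs in 26 to 96 cells. Cells had a median of 214706 UMIs, with a range of 10016 to 948642. Each of the 96 cell numbers occurred in more than 1 library, and no cells with identical counts were found. Germ markers summed higher than gonadal somatic markers in 98.2% of BVSC cells and in 3.59% of Negative cells. The germ markers include Dppa3 and Prdm1, whose promoters drive the reporters used for the sort, so this match with the gates is partly built in. Of the 4 BVSC libraries of E14.5, the cell table gives 4, 5 and 12 the replicate R1 and 14 the replicate R2, so the 4 pools are 2 deposited replicates. The labels do not say whether the libraries of a stage came from separate litters, and the p-values therefore cover only variation among libraries, part of which may be technical. In summed cells, fewer expressing cells and less RNA per cell cannot be told apart, and the shares of cells are therefore given beside the levels.

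Stra8 was a pulse around E14.5 in BVSC cells. No UMI was counted in 133 cells at E11.5, and the mean level was 677 CPM at E14.5 and 4.77 CPM at E18.5. At E11.5 both pools had 0 CPM, which with 3 counts over the stage allows up to 0.0783 CPM. At E12.5 the pools had 2.07 and 8.65 CPM, and at E13.5 they had 86.1 and 217 CPM. At E14.5 the 4 pools had 588, 613, 649 and 859 CPM. The highest BVSC pool was one of E14.5.

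From E14.5 on, the levels were lower at each later stage. At E15.5 the pools had 221 and 467 CPM, at E16.5 they had 68.7 and 88.5 CPM, and at E17.5 they had 10.1 and 25.7 CPM. At E18.5 library 6 had 0.0489 CPM and library 26 had 9.49 CPM. The E16.5 pools overlapped those of E13.5. The E18.5 value rests on very few cells: of the 45 UMIs in library 26, 44 came from 1 cell, and the pool had 0.224 CPM without it.

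**Figure D1:**
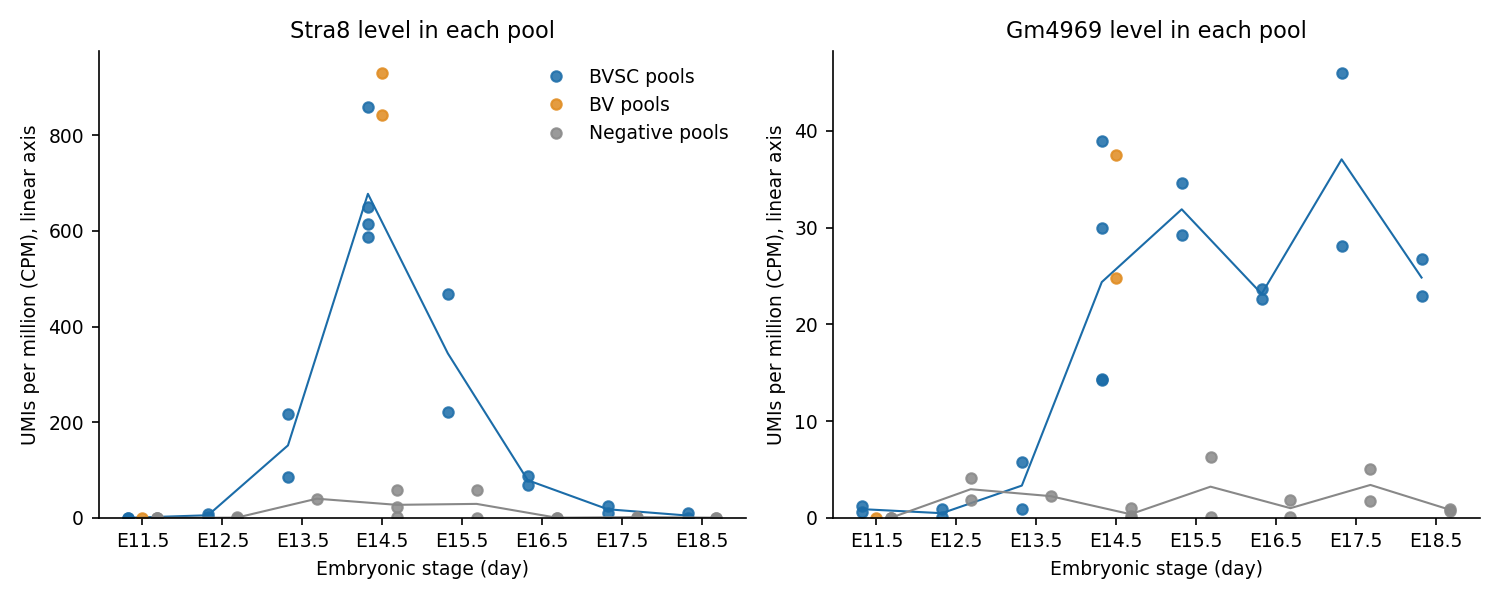
Level of Stra8 (left) and Gm4969 (right) in CPM, on linear axes, by embryonic stage. Each point is a pool of cells from 1 library, lines join the stage means of BVSC and Negative pools, and BV pools exist at E11.5 and E14.5. Stra8 peaks at E14.5 with 588 to 859 CPM in the BVSC pools, while Gm4969 stays between 14.3 and 46.0 CPM in every BVSC pool from E14.5 on.

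Against E11.5, Stra8 rose at E14.5. With a pooled level of 648 CPM at E14.5 and the limit that 3 counts set at E11.5, it was at least 8272-fold higher. This limit is separate from the test. The fitted log2 fold change was 16.64 ± 1.88 (± SE), a size that rests on a stage without a Stra8 UMI. Its adjusted p was 1.09e-05 (edgeR's quasi-likelihood test with Benjamini-Hochberg adjustment over all genes tested). In that comparison 13.9% of 10246 tested genes were called. Stra8 fell at E16.5 relative to E14.5, with -3.15 ± 0.84 on the log2 scale (± SE; edgeR adjusted p = 0.0148, with 16.3% of genes called). This call was lost without library 20 or library 22, each of which leaves 1 pool at E16.5 (adjusted p up to 0.0971 in edgeR), and with libraries merged by deposited replicate (-3.04, adjusted p = 0.0682 in edgeR). At E18.5 it was lower than at E14.5, with a log2 fold change of -7.47 ± 1.11 (adjusted p = 0.000116 in edgeR, with 18.9% of genes called). That size depends on the 1 cell of library 26: without library 26 the log2 fold change was -13.75 and without library 6 it was -6.08, both still called.

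No step between neighbouring stages passed the test for Stra8 in edgeR. The pools did not overlap in any of the 7 steps, but most steps compare 2 pools with 2. How many of all genes separate in this way was not counted, so it is a description only. The smallest adjusted p was 0.0703, for E13.5 over E12.5, and 0.0976% of genes were called in that step. The others were 0.207 for E12.5 over E11.5 (0.0683% called), 0.216 for E14.5 over E13.5 (1.33%), 0.404 for E15.5 over E14.5 (6.26%), 0.440 for E16.5 over E15.5 (0.039%), 1.0 for E17.5 over E16.5 (0%) and 0.485 for E18.5 over E17.5 (0.00976%). In the step with 0 calls, 407 of 10246 genes had an unadjusted p under 0.05 and DESeq2 called 17. The steps are thus described by their values, and several of them were called under other settings, which the closing section gives.

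Gm4969 followed another course. Its level was low through E13.5, higher from E14.5 on, and no fall was called by E18.5. The pools had 0.611 and 1.19 CPM at E11.5, 0.0541 and 0.904 CPM at E12.5, and 0.936 and 5.73 CPM at E13.5. At E14.5 they had 14.3, 14.3, 29.9 and 38.9 CPM, all above every earlier pool. They had 29.2 and 34.6 CPM at E15.5, 22.6 and 23.7 CPM at E16.5, 28.1 and 46.0 CPM at E17.5, and 22.9 and 26.8 CPM at E18.5. The pools of E14.5 span those of E15.5, E16.5 and E18.5, and the highest BVSC pool was one of E17.5.

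Gm4969 rose at E14.5 over E11.5, with a log2 fold change of 4.52 ± 0.86 (adjusted p = 0.00132, edgeR). The E11.5 pools held 36 UMIs of it in all. The log2 fold change of E16.5 over E14.5 was -0.11 ± 0.66 (adjusted p = 0.938) and that of E18.5 over E14.5 was 0.00 ± 0.66 (adjusted p = 1.0), and neither passed in edgeR. A missed threshold does not show that the level was the same, and whether Gm4969 differed from Stra8 in these comparisons was not tested. No step between neighbouring stages was called for Gm4969 in edgeR, the nearest being E14.5 over E13.5 with 2.92 ± 0.77 (adjusted p = 0.0636).

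The reads of Gm4969 cannot be told apart from those of a neighbour with certainty. Six5, a homeobox gene on the plus strand at chr7:19094594-19098549, points towards Gm4969, and their GENCODE ends lie 496 bases apart. The RefSeq model of the Gm4969 locus, chr7:19098271-19118531, runs 279 bases into Six5. The library chemistry enriches the 3′ ends of transcripts, and the strand setting of the authors' counting is not given in the sources used here. Six5 followed a course like that of Gm4969 in BVSC pools, with a Pearson r of 0.95 over the 18 pools on the log2(CPM + 1) scale, a description of pools that share their libraries. Its stage means were 2.88, 8.30, 26.7, 150, 384, 238, 193 and 182 CPM over E11.5 to E18.5. Six5 rose at E14.5 over E11.5 (log2 fold change 5.52 ± 0.57, adjusted p = 2.98e-06 in edgeR), as Gm4969 did, and over E13.5 it had a log2 fold change of 2.52 ± 0.47 (adjusted p = 0.00634). Whether the 2 genes differed in this was not tested. Within E14.5 libraries the Spearman rho of Six5 with Gm4969 across cells was 0.33 to 0.58. The 2 genes did not keep 1 proportion between the gates. At E14.5 BVSC cells held 11787 UMIs of Six5 and 1745 of Gm4969, and Negative cells held 1408 and 9. Negative cells of E12.5 held 139 and 15. How much of the Gm4969 row comes from Six5 transcripts was not tested.

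**Figure D2:**
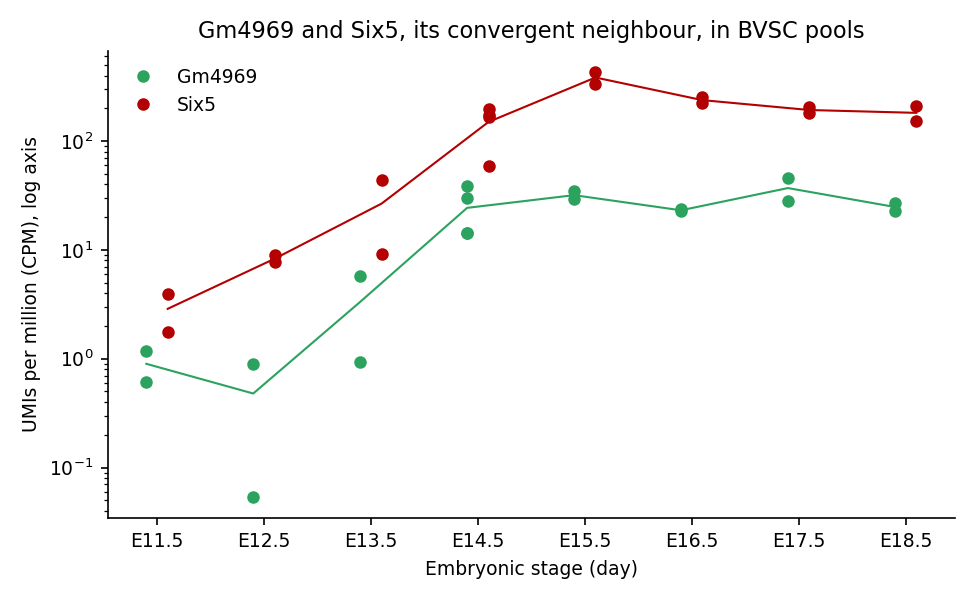
Level of Gm4969 and of Six5, the gene whose end faces that of Gm4969, in CPM on a log axis by embryonic stage. Each point is a BVSC pool of 1 library and lines join stage means. Six5 has a mean of 182 CPM at E18.5 and 150 CPM at E14.5, and Gm4969 has 24.8 and 24.4 CPM at the same stages.

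Across pools of all stages, the ratio of Stra8 to Gm4969 UMIs, log2((Stra8 + 1)/(Gm4969 + 1)), had no relation to embryonic day that passed its test (Pearson r = -0.29, permutation p = 0.242, Spearman rho = -0.32, permutation p = 0.199, two-sided, 18 pools). Without the 2 pools farthest from the median day, both of E18.5, r was 0.05. The ratio was negative at E11.5 (-3.46 and -4.75), where Stra8 had no UMIs, was 1.16 and 6.33 at E12.5 and reached 5.23 and 6.47 at E13.5. At E14.5 it was 4.44 to 5.42. It was 2.67 and 3.997 at E15.5, 1.60 and 1.90 at E16.5, and -1.47 and -0.84 at E17.5. At E18.5 it was -7.87 in library 6 and -1.48 in library 26.

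Among the 11 pools with at least 50 UMIs of each gene, which lie between E13.5 and E17.5, the ratio was lower at later days (r = -0.95, permutation p = 4e-05, rho = -0.92, permutation p = 0.00026). The same held in the 12 pools from E14.5 on, a range chosen after the values were seen (r = -0.92, rho = -0.98, permutation p = 2e-05 for each, the smallest that 100000 permutations can give). Without the 2 farthest pools r was -0.97 in both sets. The threshold of 50 UMIs was set on the counts that form the ratio. Both sets leave out the pools of E11.5 and E12.5 and run from near the Stra8 maximum into its fall. Their p-values thus add nothing beyond the fall of Stra8 described above. The 4 relations are different cuts of the same pools and not independent.

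**Figure D3:**
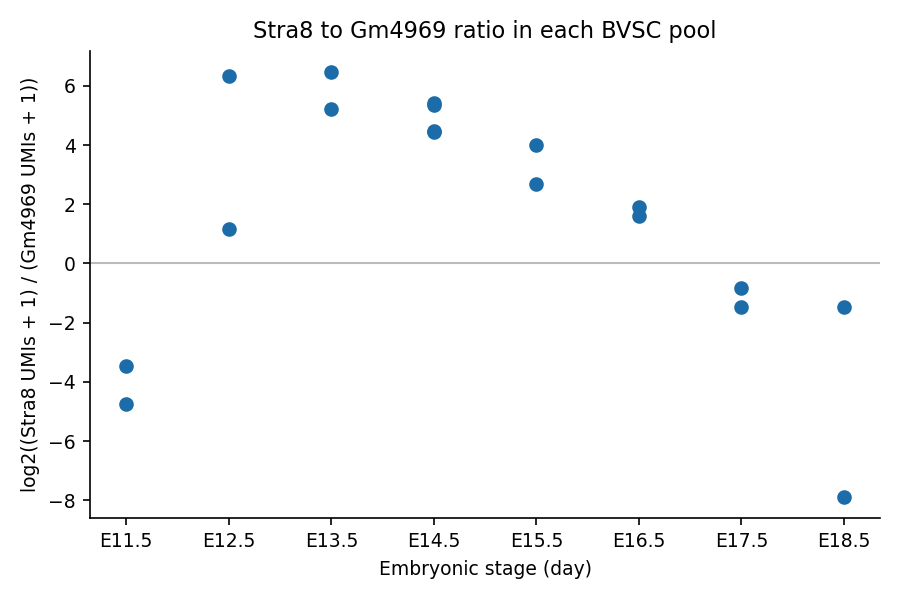
Ratio of Stra8 to Gm4969 UMIs, as log2 with 1 UMI added to each, by embryonic stage, with 1 point per BVSC pool and a line at 0. The points lie above 0 from E12.5 to E16.5, with 4.44 to 5.42 at E14.5, and below 0 at E11.5, E17.5 and E18.5.

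The share of BVSC cells with at least 1 Stra8 UMI was 0% at E11.5 (0 of 133 cells, which allows a share of up to 2.26% of cells with a UMI and sets no limit on cells that express the gene), 18.2% at E12.5, 89.0% at E13.5, 99.6% at E14.5, 99.4% at E15.5, 76.1% at E16.5, 40.8% at E17.5 and 3.09% at E18.5. Negative cells are mostly somatic, but 81.8% of 33 had a Stra8 UMI at E13.5, 65.7% of 137 at E14.5 and 32.9% of 85 at E15.5. The share was 0% to 15.2% at the other stages. The median depth of BVSC and Negative cells was 305532 and 126110 UMIs at E13.5, and 260311 and 208924 UMIs at E14.5. Thinned to 50000 UMIs per cell, 66.3% of 149 BVSC cells and 51.7% of 28 Negative cells at E13.5 had a UMI, and 99.8% of 267 and 47.9% of 133 at E14.5. A single Stra8 UMI at E13.5 to E15.5 is therefore not taken as a mark of a germ cell. The share of Negative cells with a UMI differed between libraries, with 100%, 87.0% and 14.6% in libraries 4, 13 and 15 of E14.5. At E13.5 31 of the 33 Negative cells came from library 3. The source of these UMIs was not tested.

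A threshold of 10 UMIs set the gates further apart. The share of BVSC cells with at least 10 Stra8 UMIs was 0%, 5.59%, 45.2%, 96.8%, 70.8%, 20.7%, 8.45% and 1.03% over E11.5 to E18.5. Among Negative cells it was 3.03% at E13.5, 19.7% at E14.5 and 7.06% at E15.5, and 0% at the other stages, and library 4 of E14.5 had 48.8% of its 43 Negative cells. The 2 libraries of E13.5 stood apart, with 73.0% of 63 BVSC cells in library 3 and 26.1% of 92 in library 10. At E14.5 the 4 libraries had 92.1% to 99.0%. At E15.5 library 16 had 56.4% and library 18 had 91.0%, which is the largest spread between libraries of a stage after E13.5.

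Cells of a stage had unlike spreads of Stra8. At E13.5 the quartiles of the BVSC cells were 7.43 and 225 CPM around a median of 22.5 CPM. This range also spans a difference between libraries, with a median cell of 124 CPM in library 3 and 11.4 CPM in library 10. At E14.5 the quartiles were 420 and 1049 CPM around a median of 706 CPM. At E16.5 the median cell had 14.1 CPM and the upper quartile 38.4 CPM, while the highest cell had 1769 CPM, and the 10% of cells with the most Stra8 UMIs held 76.0% of them. The corresponding figure was 22.9% at E14.5, 33.1% at E15.5 and 90.5% at E17.5. At E17.5 59.2% of cells had no Stra8 UMI, and the highest cell had 291 CPM, below the lower quartile of E14.5.

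Gm4969 was seen in fewer cells than Stra8 from E12.5 to E16.5 and in more at E11.5, E17.5 and E18.5. At least 1 UMI was present in 4.51%, 2.80%, 22.6%, 50.5%, 68.9%, 51.1%, 59.2% and 61.9% of BVSC cells over E11.5 to E18.5. In Negative cells the share was 0% to 11.4% at all stages but E17.5, where it was 23.9%. Thinned to 50000 UMIs, the BVSC shares from E14.5 on were 32.7%, 44.7%, 35.1%, 38.9% and 38.9%, and those of Negative cells were 1.43% to 11.3% at the same stages. From E14.5 on the share of BVSC cells with at least 10 UMIs lay between 14.4% and 26.7%. The counts were uneven over cells: at E14.5 a Poisson spread of the same mean would leave 6.43% of cells without a UMI, and 49.5% had none.

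At E11.5 and E12.5 6 and 3 BVSC cells had Gm4969 without any Stra8 UMI. From E13.5 to E15.5, where many Negative cells also had a Stra8 UMI, none did. At E14.5 143 of 283 BVSC cells had both genes, 139 had only Stra8, none had only Gm4969 and 1 had neither, and all 143 cells with a Gm4969 UMI had at least 10 Stra8 UMIs. At E13.5 35 of 155 cells had both and none had only Gm4969, and 27 of the 35 had at least 10 Stra8 UMIs. At E15.5 111 of 161 cells had both, and 30 of the 111 had fewer than 10 Stra8 UMIs. At E16.5 84 of 188 cells had both and 12 had only Gm4969. At E17.5 the numbers were 41 and 43 of 142 cells, and at E18.5 they were 1 and 59 of 97. Cells with only Gm4969 thus made up 6.38%, 30.3% and 60.8% of BVSC cells at these 3 stages.

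**Figure D4:**
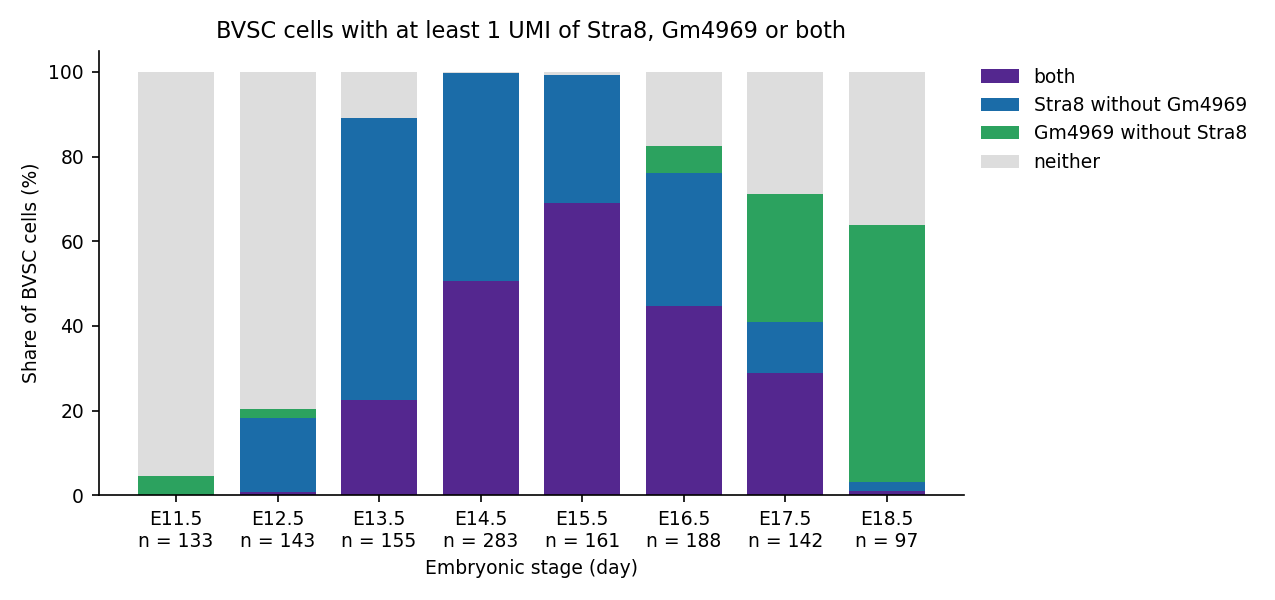
Share of BVSC cells, in percent, with at least 1 UMI of both genes, of Stra8 without Gm4969, of Gm4969 without Stra8 or of neither, by embryonic stage with the number of cells under each bar. Cells with both make up 50.5% at E14.5 and 68.9% at E15.5, and cells with Gm4969 alone make up 60.8% at E18.5.

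The share of cells with a Gm4969 UMI and at least 10 Stra8 UMIs was set beside the product of the separate shares. It was 17.4% at E13.5, against a product of 10.2%. At E16.5 it was 15.4%, against 10.6%, and at E17.5 it was 7.04%, against 4.999%. At E14.5 it was 50.5%, against 48.9%, where 96.8% of cells had 10 Stra8 UMIs and little room was left for a difference, and at E15.5 it was 50.3%, against 48.8%. Depth moved with this: the median depth was 326285 UMIs in E14.5 cells with Gm4969 and 187967 UMIs in those without. The products also pool libraries that differed. At E13.5 library 3 had 73.0% of BVSC cells with at least 10 Stra8 UMIs and 38.1% with Gm4969. Library 10 had 26.1% and 12.0%. At E16.5 and at E17.5 too, 1 library was higher than the other in both shares. The parts of depth and of library in the shares were not tested.

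The levels of the genes were at most moderately related within libraries. The Spearman rho of Stra8 with Gm4969 CPM across cells was 0.41 and -0.01 in libraries 3 and 10 of E13.5. It was 0.08 to 0.41 in the 4 libraries of E14.5, and -0.02 and 0.05 at E15.5. Later it was 0.23 and 0.26 at E16.5, 0.19 and -0.07 at E17.5, and -0.14 and -0.04 at E18.5. These cells share library and depth, and the rho of Stra8 CPM with cell depth was -0.14 to -0.50 at E14.5, while that of Gm4969 was 0.20 to 0.28. At E13.5 Stra8 had a median of 311 CPM in the 24 cells of library 3 with a Gm4969 UMI and 84.9 CPM in the 39 without. Library 10 had 11.1 CPM in 11 cells with and 11.48 CPM in 81 without.

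BVSC cells had more of both genes than Negative cells, but not at every stage. At E12.5 Gm4969 had 0.904 and 0.0541 CPM in the BVSC pools and 1.82 and 4.10 CPM in the Negative pools. These pools held 1 to 24 UMIs of it. At E13.5 its Negative pool had 2.24 CPM, between the BVSC pools with 0.936 and 5.73 CPM. Stra8 had no UMI in either gate at E11.5. Over all stages, with stage as a term, Stra8 was higher in BVSC pools by a log2 fold change of 4.26 ± 0.69 (adjusted p = 3.49e-06) and Gm4969 by 3.59 ± 0.73 (adjusted p = 7.69e-05, both edgeR). The background was high, since 64.5% of 9805 genes were called between the gates. With the library as a block the log2 fold changes were 3.42 for Stra8 and 2.87 for Gm4969 (adjusted p = 1.78e-06 and 0.0313 in edgeR). Without the Negative pools of libraries that also hold BVSC or BV cells, they were 5.63 and 5.05. Six5 had a log2 fold change of 1.26 ± 0.44 (adjusted p = 0.0118), with 24.3 to 71.5 CPM in the Negative pools of E14.5.

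Stra8 in Negative pools was uneven over libraries. It had 57.8, 22.1 and 1.59 CPM in the Negative pools of libraries 4, 13 and 15 at E14.5, and 58.2 and 0.107 CPM in those of libraries 17 and 19 at E15.5. It had 40.0 CPM in the Negative pool of library 3 at E13.5. Libraries 13, 15, 17 and 19 held Negative cells alone, and libraries 3 and 4 held BVSC cells too. Without the Negative cells whose germ markers summed above their somatic markers, library 3 had 13.7 CPM and library 17 had 10.9 CPM, and libraries 4 and 13 held no such cell. Gonadal somatic markers summed to between 1399 and 2427 CPM in the Negative pools and to between 12.4 and 225 CPM in the BVSC pools, with the highest at E16.5.

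No difference between the 2 BV pools and the 4 BVSC pools of E14.5 was called for either gene. Both BV pools came from libraries that also hold BVSC cells, and the fit did not pair them. Stra8 had 843 and 930 CPM in BV pools, against 588 to 859 CPM in BVSC pools, and Gm4969 had 24.8 and 37.5 CPM, against 14.3 to 38.9 CPM. The log2 fold changes were 0.32 ± 0.63 for Stra8 (adjusted p = 0.963) and 0.28 ± 0.64 for Gm4969 (adjusted p = 0.978, edgeR), and 0.0179% of 11204 genes were called. Within library 4 Stra8 had 930 CPM in BV and 859 CPM in BVSC cells, and within library 5 it had 843 CPM in BV and 588 CPM in BVSC cells, which was not tested. All 45 BV cells of E14.5 had at least 10 Stra8 UMIs, and 46.7% had a Gm4969 UMI.

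The cell names of E13.5 to E16.5 also carry a letter, C, D or P, whose meaning the labels do not give. Stra8 was highest in C cells in each of the 3 E14.5 libraries that hold them, but not at every other stage. At E14.5 library 5 had 947 CPM in C cells and 416 CPM in P cells, library 12 had 797, 533 and 698 CPM in C, D and P cells, and library 14 had 664, 590 and 586 CPM. At E13.5 library 3 had 329 CPM in C cells and 151 CPM in P cells, while library 10 had 68.1, 107 and 81.5 CPM in C, D and P cells. At E15.5 D cells were highest in both libraries, with 257 and 576 CPM. At E16.5 P cells were highest in library 20 with 217 CPM and D cells in library 22 with 164 CPM. Gm4969 at E14.5 was higher in P than in C cells in libraries 5 and 14 (18.7 against 5.23 CPM and 23.3 against 8.45 CPM) and lower in library 12 (24.3 against 41.7 CPM).

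Of the genes of retinoic acid handling, 8 of 20 listed were in the table and all 8 were tested. Rdh10, which makes the precursor of retinoic acid, rose at E14.5 over E11.5 (2.61 ± 0.65, adjusted p = 0.00967, edgeR), and the other 7 were not called in that comparison, in which 13.9% of all genes were, so the count is near the background. Crabp2, which carries retinoic acid to its receptors, had 73.9 ± 20.1 CPM (SD, n = 4 libraries) at E14.5 and fell at E16.5 relative to E14.5 (log2 fold change -3.71 ± 0.76, adjusted p = 0.00241). It was 1 of 8 called there, where 16.3% of all genes were, so this count too is near the background. Cyp26b1, which breaks retinoic acid down, stayed at or below a mean of 2.53 CPM at every stage in BVSC pools. The median log2 fold change of the 8 was 1.69 at E14.5 over E11.5, against 0.07 over all genes tested.

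Of 22 genes listed around meiotic entry, 9 were in the table. The list is broad, and Figla and Dmrtc2 are not taken here as factors that act before entry. At E14.5 over E11.5 Figla, Dmrtc2, Msx1, Rbm46 and Id1 rose and Ccna2 fell, that is 6 of 9, where 13.9% of all genes were called. The list median was 1.44, against 0.07 over all genes. Figla, a basic helix-loop-helix factor of oocytes, and Dmrtc2, a relative of the DMRT factors, also rose at E14.5 over E13.5, by 3.72 ± 0.55 (adjusted p = 0.00114) and 3.16 ± 0.41 (adjusted p = 0.000352, edgeR). They were 2 of 9, where 1.33% of all genes were called. At E16.5 over E14.5 Figla rose further, by 1.77, and Ccna2, Id3, Msx1 and Gata2 fell. In that comparison 16.3% of all genes were called. Msx1, a homeobox factor downstream of BMP signals, had 144 CPM at E14.5 and, like Stra8, was lower later (35.3 CPM at E16.5 and 3.01 CPM at E18.5). It fell at E18.5 relative to E14.5 (log2 fold change -5.49 ± 0.76, adjusted p = 5.1e-05). In that comparison 2 of the 9 genes rose and 3 fell, where 18.9% of all genes were called. Ccna2, a cyclin of mitotic cycles, had 50.4 CPM at E16.5, against 174 CPM at E14.5, and fell (log2 fold change -1.83 ± 0.32, adjusted p = 0.000739).

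Among genes that hold meiotic entry back, 7 of 18 were in the table, and Eed and Prdm1 fell at E14.5 over E11.5 while none rose. Eed is a Polycomb subunit and Prdm1 the repressor whose promoter drives the Blimp1-mVenus reporter. Prdm14, Prdm1 and Ezh2 fell at E16.5 relative to E14.5. The genes called were thus 2 of 7 and 3 of 7, where 13.9% and 16.3% of all genes were called. The list median was -0.39 at E14.5 over E11.5 and -0.95 at E16.5 over E14.5, against 0.07 and 0.09 over all genes.

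The meiotic prophase genes were high at the late stages too. All 18 in the table, of 40 listed, rose at E14.5 over E11.5, where 13.9% of all genes were called, with a median of 3.28 against 0.07 over all genes. At E16.5 over E14.5, where Stra8 fell, 10 of them rose and none fell (median 1.13, against 0.09 over all genes, with 16.3% called), and at E18.5 over E14.5 5 rose and 3 fell (median 0.53, against 0.00 over all genes, with 18.9% called). Sycp1, which encodes a protein of the synaptonemal complex, had 145 CPM at E13.5, 541 at E14.5, 999.7 at E15.5 and 1388 at E16.5. Spo11, which makes the DNA breaks of recombination, had 42.0, 241 and 280.4 CPM at E14.5, E15.5 and E16.5, and rose at E16.5 over E14.5 by 2.72 ± 0.36 (adjusted p = 6.89e-05, edgeR). Ugt8a, an enzyme of galactolipid synthesis, Stag3, a meiotic cohesin subunit, and M1ap fell at E18.5 relative to E14.5.

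Pluripotency genes of primordial germ cells were lower at the later stages. Of 8 in the table, of 15 listed, Tfap2c, L1td1 and Nanog fell at E14.5 over E11.5, and all 8 fell at E16.5 over E14.5. The medians were -1.62 and -5.41, against 0.07 and 0.09 over all genes, of which 13.9% and 16.3% were called. Nanog had 140 CPM at E13.5, 46.7 at E14.5, 8.79 at E15.5 and 0.949 at E16.5. Tfap2c, a germ cell specifier, had 177, 75.7, 14.1 and 0.387 CPM at the same stages.

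Within E14.5, where the pools were highest, cells with more Stra8 also had more prophase RNA and less pluripotency RNA. Of 17 prophase genes with a value in all 4 libraries, 16 had a positive Spearman rho with Stra8 CPM in every library, with a median over genes of 0.40. Sycp1 had 0.62 to 0.72, Syce1 0.50 to 0.65 and Tex101 0.50 to 0.65, and Rnf212 was the exception with -0.12 to 0.52. All 8 pluripotency genes had a negative rho in every library, with a median of -0.53: Gdf3 had -0.68 to -0.43, Tfap2c -0.67 to -0.42 and Utf1 -0.73 to -0.36. Ccna2 had -0.58 to -0.47. The points are 283 cells that share library and depth, and the rho of Stra8 with depth was itself negative in these libraries.

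For Gm4969 at E14.5, all 17 prophase genes had a positive rho with Gm4969 in each of the 4 libraries, with a median of 0.38, and 6 of 8 pluripotency genes had a negative one, with a median of -0.22. Here the rho with depth was positive. Hormad1 had 0.30 to 0.62. Tex11 had 0.34 to 0.56, and with Stra8 it had 0.19 to 0.28. At the other stages the prophase list varied in its signs with Stra8. At E12.5 8 of 15 genes were positive in both libraries and 1 negative (median rho 0.04), at E13.5 14 of 14 were positive (median 0.35), at E15.5 3 of 18 were positive and 5 negative (median 0.01), at E16.5 14 of 18 were positive and none negative (median 0.16), at E17.5 11 of 18 were positive and 4 negative (median 0.07), and at E18.5, where 3 cells had a Stra8 UMI, none of 17 was positive and 7 were negative (median -0.05).

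**Figure D5:**
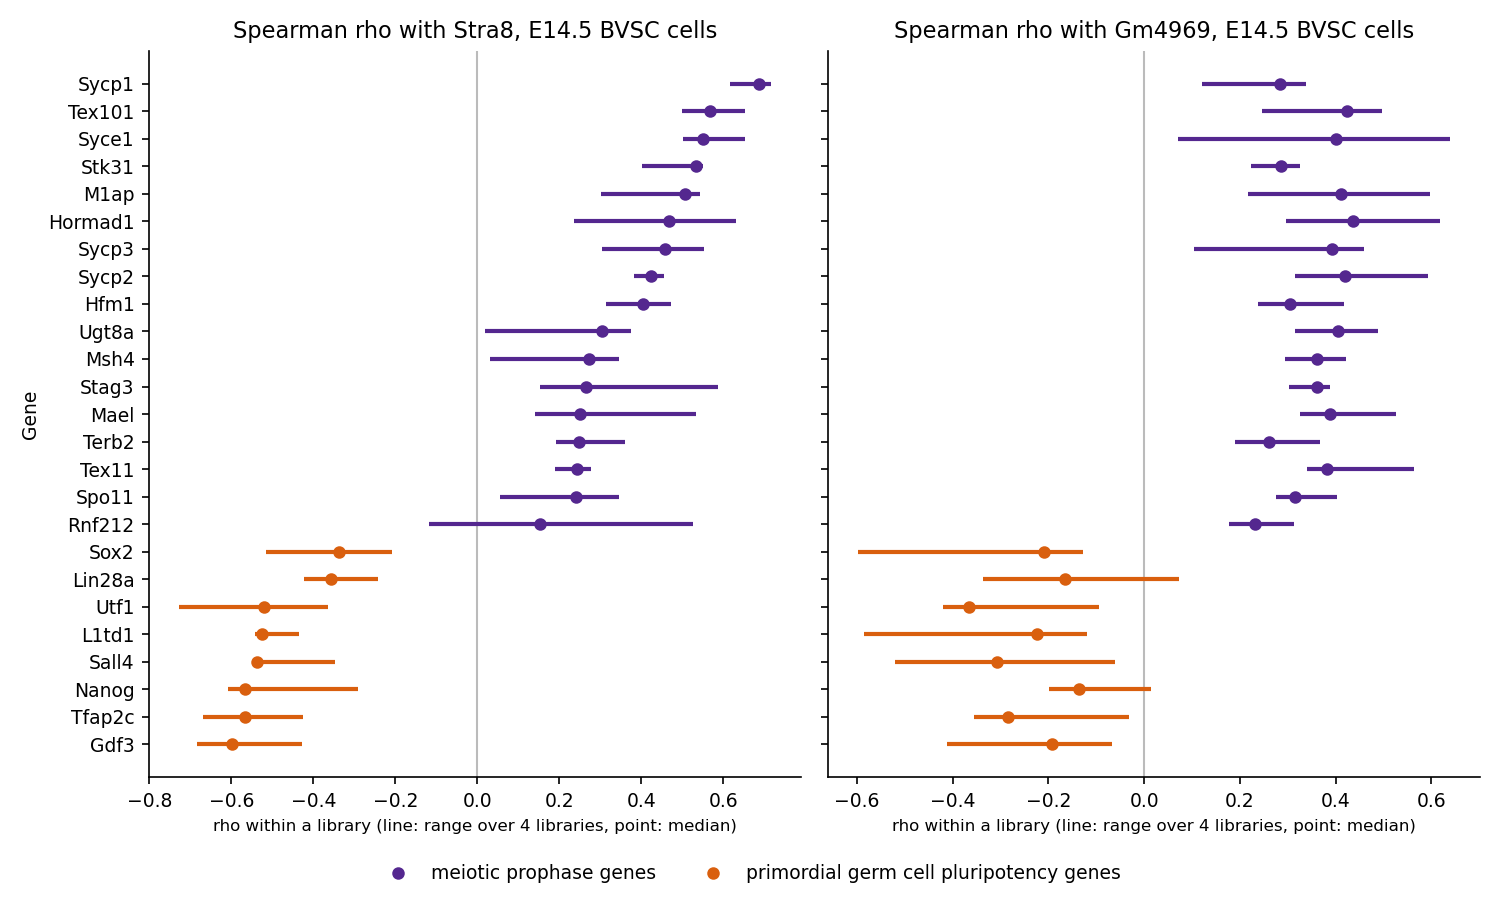
Spearman rho across E14.5 BVSC cells of each prophase and pluripotency gene with Stra8 (left) and with Gm4969 (right). Lines run from the lowest to the highest of 4 libraries and points are medians. For Stra8 the prophase genes lie right of 0, apart from part of the range of Rnf212, and all 8 pluripotency genes lie left of it.

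Of 7094 genes with a level of at least 5 CPM in some stage mean, the 10 whose pools were most like those of Stra8 were Timm17b, Nmb, Penk, Prr36, Zfp667, Tuba3b, Rusc1, Arid3c, Sept6 and Chil1. Their Pearson r of log2(CPM + 1) over the 18 pools was 0.86 to 0.94. Timm17b, a subunit of the mitochondrial inner membrane translocase, was highest in this order and had a much smaller range, with 175 CPM at E11.5, 468 at E14.5 and 201 at E18.5. Nmb and Penk, which encode neuropeptide precursors, had 15.9 and 1.11 CPM at E18.5, against 99.8 and 16.4 CPM at E14.5.

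The 10 most like Gm4969 were Xlr4c, Xlr4b, Xlr4a, Taf7l, Washc3, Mpc2, Syce1, B230118H07Rik, Lypd4 and Emc7, with an r of 0.96 to 0.98. Xlr4a, Xlr4b and Xlr4c are near-identical X-linked copies whose reads the counting could split, so their values are uncertain apart. Taf7l, a germ cell relative of a TFIID subunit, had 2.28 CPM at E11.5, 252 at E14.5 and 652 at E18.5. Syce1, of the synaptonemal complex, had 74.0, 332 and 397 CPM at these stages. Stra8 and Gm4969 themselves had an r of 0.50 with each other, which placed Gm4969 at rank 713 for Stra8 and Stra8 at rank 2406 for Gm4969.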

How the data were processed

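The authors deposited raw UMI counts per gene and cell, with a cell table giving stage, gate, library, replicate and UMI total. Per the labels' protocols, cells picked by mouth were processed by a modified STRT-seq that enriches 3′ ends. Per the submitters' processing notes, CASAVA 1.8, UMI-tools, STAR, featureCounts and Subread were used with build mm10. For the strand setting and the annotation, no statement is given in the sources used. The count table ended within a line of chromosome 8, so 1 incomplete line was dropped. Per cell, its 16344 genes account for 40.1% to 56.4% of the UMIs, with a median of 51.2%, and genes beyond that point were not analysed here.

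All cells were kept, with no doublet caller. Pools of at least 5 cells were tested with edgeR 4.0.16 (TMM, filterByExpr, quasi-likelihood, adjusted p under 0.05) and with DESeq2 1.42.0 as an alternative, in R 4.3.3. The stage fit used BVSC pools, and the gate fit had stage as a term. CPM was scaled by the deposited UMI totals. Intervals and limits from a count of 0 use 95% and 3 counts and cover counting error only. Genes were named as the 10 most like each member by Pearson r of log2(CPM + 1), and from 5 lists. Six5 was added after the data were seen. The members and lists were chosen with earlier results of these data known.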

Additional observations from a re-analysis of the deposited data

How the results depend on the processing

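The rise of Stra8 and Gm4969 at E14.5 over E11.5 kept its direction and its call in every alternative run, each left-out library included. So did the lower Stra8 at E18.5 than at E14.5. The same held for the higher level of both genes in BVSC than in Negative pools in the fit over all stages. Some libraries hold both a BVSC and a Negative pool, which the main gate fit did not pair. With these libraries as blocks, the BVSC over Negative log2 fold changes were 3.42 for Stra8 and 2.87 for Gm4969. The fall of Stra8 at E16.5 relative to E14.5 was not called with libraries merged by the deposited replicate number (-3.04, adjusted p = 0.0682, fewer pools), and with 1 library left out it ran over -3.36 to -3.01, with the call lost without library 20 or 22.

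Steps between neighbouring stages depended most on the filter. With no filter on low counts edgeR called all 7 steps of Stra8, with log2 fold changes of 9.78, 4.69, 2.20, -1.05, -2.17, -2.13 and -2.11 over E12.5 to E18.5, and Gm4969 at E14.5 over E13.5 with 2.95. DESeq2 called Stra8 at E12.5 over E11.5 (9.02, adjusted p = 0.00602) and Gm4969 at E14.5 over E13.5 (2.92, adjusted p = 0.000847). With 1 library left out the Stra8 steps ran over 8.495 to 10.52 at E12.5 (called in 7 of 18), 3.97 to 6.03 at E13.5 (called in 11), 1.76 to 2.72 at E14.5 (called without library 6 or 26), -2.58 to -1.53 at E16.5 (called without library 6) and -8.47 to -0.73 at E18.5 (called without library 26). Gm4969 at E14.5 over E13.5 ran over 2.19 to 4.43 (called in 11). The cause was not tested.

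The log2 fold change of Gm4969 near 0 changed sign without a call. At E16.5 over E14.5 it was 0.14 with merged libraries and 0.051 with the start of the library name as a covariate, and -0.37 to 0.23 with 1 library left out. At E18.5 over E14.5 it was -0.034 with no filter, -0.043 with upper-quartile scaling and -0.28 to 0.34 with 1 library left out. The ratio of Stra8 to Gm4969 had an r of -0.95 in pools with at least 50 UMIs of each gene and -0.92 from E14.5 on. Both sets leave out E11.5 and E12.5. With 1 library left out of all pools, r was -0.515 to -0.0839. The permutation p of r was under 0.05 only without library 7. That of Spearman rho was under 0.05 without library 1 and without library 7 (rho -0.52 in both). Of the 10 genes most like Stra8, 5 were shared under Spearman rho and 3 under stage means, and of those most like Gm4969 1 and 2 were.

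Counts over all genes moved more. Merged libraries gave 933 calls against 1428 at E14.5 over E11.5, 793 against 1672 at E16.5 over E14.5, 1152 against 1938 at E18.5 over E14.5, 81 against 136 at E14.5 over E13.5 and 122 against 641 at E15.5 over E14.5. DESeq2 gave 434 and no filter 459 at E14.5 over E13.5, and 1154 and 1175 at E15.5 over E14.5. In the other 5 steps, with 0 to 10 calls in edgeR, DESeq2 gave 17 to 146 and no filter 59 to 234. The library name start, the scaling by deposited totals, the Negative pools of shared libraries and the ratio from E14.5 on were chosen after seeing the data. Depth limits Stra8 at E11.5 and E18.5 and Gm4969 up to E13.5, where pools held 0 to 127 UMIs.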
